A study of Mus musculus with 7 samples.

Results

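Granins and prohormone processing genes were followed through the endocrine and the other cells of the mouse stomach. The set held 10 genes of the 18907 features in the deposited tables, found there by gene symbol: Chga, Chgb, Scg2, Scg5, Pcsk1n, Pcsk1, Pcsk2, Cpe, Scgn and Pam. Hormone-secreting cells store peptides in dense-core granules. Granins are acidic proteins that aggregate with the hormone cargo in these granules, and proprotein convertases cut prohormones at paired basic residues. A carboxypeptidase then trims the exposed basic residues, an amidating enzyme modifies the carboxyl end of peptides such as gastrin, and small chaperone-like proteins hold the convertases in check until the granule matures.

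The cells came from gastric glands of C57BL/6 mice, all wild type, with 3 plates labelled pylorus, the outlet of the stomach, and 4 plates labelled corpus, its main body. Living epithelial cells, unselected by surface marker in the labels, were sorted singly into the 384 wells of each plate, and CEL-seq2 counted transcripts by unique molecular identifiers (UMIs) near the 3′ end, so that levels do not scale with transcript length. Levels are given as CPM, the count scaled to a fixed total of 1000000 UMIs, of a group of wells summed per plate. The labels do not give age, sex or the animals behind each plate, so the p-values describe the spread between plates.

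The plates had 2688 wells, and the 2235 wells with 1000 or more UMIs were used. A well counted as endocrine when Ghrl, Hdc, Sst or Gast reached at least 10 UMIs, at least 1000 CPM and at least 5 times its median in that plate, and it was named for the gene with the highest CPM above that median. Ghrl encodes ghrelin, Hdc the enzyme that makes histamine, Sst somatostatin and Gast gastrin. No member entered this choice. It gave 271 endocrine wells, of which 142 were led by Ghrl, 103 by Hdc, 21 by Sst and 5 by Gast, against 1963 non-endocrine wells. A single well led by Tac1 was kept apart, and wells with mast cell proteases were counted as non-endocrine because mast cells also use Hdc.

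The plates were not alike. All wells of a plate together held 2646492 to 9511078 UMIs, and the median kept well 6899 to 25544. Corpus replicate 1 and pylorus replicate 1 were the shallowest, and spike-in RNA made up 4.27% to 6.55% of their UMIs, against 0.256% to 0.426% in the other 5 plates. Gast, the hormone gene of the antral G cell, went against the labels: all 3340 of its UMIs in the wells used lay in the library labelled corpus replicate 1, and the 3 libraries labelled pylorus had 0. Parietal-like wells, which mark the corpus, numbered 2, 12 and 20 in the libraries labelled pylorus replicates 1 to 3, against 3, 4, 56 and 42 in those labelled corpus replicates 1 to 4. The plates also fell into sets that cut across the labels. A neck-like cluster of 173 wells held only wells of corpus replicates 1 and 2 and pylorus replicate 1. A chief-like cluster of 179 wells held wells of the other 4 plates alone. Sst-led wells numbered 0 to 7 per plate, so sums over all endocrine wells differ in their mix of classes.

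The members took 6.07% of all UMIs in endocrine wells and 0.124% in non-endocrine wells. Chga alone gave 183606 of the UMIs that the members had in endocrine wells. Chgb followed with 16935, Pam with 5602, Cpe with 4183 and Scg5 with 3091. The other members were far rarer, with 1118 UMIs for Pcsk1, 869 for Pcsk2, 317 for Pcsk1n, 306 for Scg2 and 231 for Scgn.

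Endocrine and non-endocrine wells of the same plate were compared first, to see which members mark hormone-producing cells as a group. All 10 members were higher in the endocrine wells (limma with plate as block, Benjamini-Hochberg adjustment over 9550 genes). Scg2, Scgn and Pcsk1n reached at most 1.35, 2.29 and 1.79 CPM in the non-endocrine wells of a plate. They passed the filter on low counts only through the endocrine wells, so their calls are no support. Pcsk1 and Pcsk2 had medians of 2.19 and 2.52 CPM over plates in non-endocrine wells. They too passed it only through the endocrine wells, and their calls carry the same limit. The comparison called 54.8% of all genes tested, 27.1% higher and 27.7% lower, so the calls alone say little. The members' median difference was 6.34 on the log2 scale, against -0.0019 for all genes tested. That median includes the members under the limit above, whose fitted sizes depend on the prior count of the fit. The other members differed by 6.71 (Chgb), 6.35 (Scg5), 5.20 (Cpe), 5.08 (Chga) and 4.18 (Pam). By size of the difference the members ranked between 28 (Chgb) and 281 (Pam). The calls held with each plate left out in turn, the shallow plates included. In each of the 7 plates every member was higher in endocrine wells. The exact two-sided sign-flip test over plates gave p = 0.0156 for each member, the smallest p that 7 plates allow. The share of all genes that were higher in every plate was not counted, so this describes the members and is no support.

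Among the granins, Chga, the chromogranin A precursor, had the highest level. It stood at 30959, 48758 and 47944 CPM in endocrine wells of pylorus replicates 1 to 3, against 220, 1442 and 1277 CPM in the non-endocrine wells of the same plates. In corpus replicates 1 to 4 it stood at 7837, 62577, 45515 and 41108 CPM in endocrine wells, against 151, 1772, 884 and 1140 CPM in non-endocrine wells. The groups did not overlap, but corpus replicate 1, whose endocrine wells were led mostly by Sst, Ghrl and Gast, stayed far under the other plates. The fitted log2 difference was 5.08 ± 0.15 (SE, adjusted p = 2.98e-13).

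Chgb, which encodes the related chromogranin B, showed the largest difference of the set. Its level was 3187, 4808 and 3997 CPM in endocrine wells of pylorus replicates 1 to 3, against 11.6, 38.4 and 21.7 CPM in their non-endocrine wells. In corpus replicates 1 to 4 it was 2280, 6244, 3003 and 3162 CPM in endocrine wells, against 11.4, 69.5, 19.4 and 26.6 CPM in non-endocrine wells. The groups did not overlap, and corpus replicate 1 was again the lowest in endocrine wells, though nearer to the other plates than for Chga. The log2 difference was 6.71 ± 0.14 (SE, adjusted p = 8.69e-15).

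The 2 chromogranins did not keep the same proportion outside endocrine cells. Endocrine wells held 10.8 Chga UMIs for each Chgb UMI, with plates between 3.44 and 15.2. Non-endocrine wells held 38.8, with plates between 13.2 and 58.8. The ranges overlapped only between 13.2 and 15.2.

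Scg2, the secretogranin II precursor, was rare but nearly confined to endocrine wells, which held 90.0% of its 340 UMIs. Its log2 difference was 6.42 ± 0.31 (SE), with a call that is no support, as said above. In endocrine wells it ranged from 46.9 CPM in pylorus replicate 1 to 256 CPM in corpus replicate 1. In non-endocrine wells it stayed between 0 CPM in pylorus replicate 1, where the floor of 3 counts is 1.20 CPM, and 1.35 CPM in corpus replicate 2.

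The promoters of 3 members, Chgb, Scg2 and Pcsk1, hold the palindrome TGACGTCA, known as the cAMP response element, and Chga holds its TGACG core. They are shown because granins and a convertase that were higher together in endocrine wells share this element. Each line gives the 100 bases before the start from RefSeq (build GRCm38.p6), 5′ to 3′ on the gene's own strand, with the element in capitals.
Chgb: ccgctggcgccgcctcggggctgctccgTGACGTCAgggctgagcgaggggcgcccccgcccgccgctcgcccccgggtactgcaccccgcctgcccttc
Scg2: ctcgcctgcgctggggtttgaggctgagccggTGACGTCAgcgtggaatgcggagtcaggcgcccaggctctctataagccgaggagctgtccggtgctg
Pcsk1: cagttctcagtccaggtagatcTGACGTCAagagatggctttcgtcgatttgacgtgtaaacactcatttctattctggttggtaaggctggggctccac
Chga: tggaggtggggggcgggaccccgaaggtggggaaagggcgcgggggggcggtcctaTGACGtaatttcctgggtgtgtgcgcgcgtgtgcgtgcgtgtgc

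These windows lie at chr2:132781542-132781641 on the plus strand for Chgb and chr1:79440027-79440126 on the minus strand for Scg2. They lie at chr13:75089757-75089856 on the plus strand for Pcsk1 and chr12:102554841-102554940 on the plus strand for Chga. The element began 72 bases before the start in Chgb, 68 in Scg2, 78 in Pcsk1 and 44 in Chga. Searched on both strands over the 300 bases that the reference gives per start, TGACGTCA was present in 588 of 32851 promoters (1.79%). The shorter TGACG, which lies within it, was present in 20.8% of them. Of the 9 members with a promoter in the reference, 3 held the palindrome and 6 held TGACG (Chga, Chgb, Scg2, Scg5, Pcsk1 and Pcsk2). A match of letters is a description and not a measured binding site.

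The convertases and their small partner proteins were next. Pcsk1 encodes proprotein convertase 1/3 and Pcsk2 proprotein convertase 2. Pcsk1 reached 112, 293 and 256 CPM in endocrine wells of pylorus replicates 1 to 3, and 199, 448, 186 and 159 CPM in those of corpus replicates 1 to 4. In non-endocrine wells it lay between 0 and 7.42 CPM. The groups did not overlap, and its log2 difference was 6.05 ± 0.27 (SE), with a call that is no support, as said above.

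Pcsk2 reached 281, 145 and 89.2 CPM in endocrine wells of pylorus replicates 1 to 3, and 1325, 211, 380 and 382 CPM in those of corpus replicates 1 to 4. In non-endocrine wells it lay between 0.474 and 5.34 CPM. Its level in endocrine wells varied more between plates than that of Pcsk1, and corpus replicate 1 was the highest. The log2 difference was 6.40 ± 0.26 (SE), with a call that is no support, as said above.

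Scg5 encodes 7B2, the chaperone that proprotein convertase 2 needs to mature, and Pcsk1n encodes proSAAS, an inhibitor of proprotein convertase 1/3. Scg5 was the most even member over the plates in endocrine wells, at 810 ± 121 CPM in endocrine wells and 7.41 ± 4.00 CPM in non-endocrine wells (SD, n = 7 plates). Pcsk1n was less even in endocrine wells, at 166 ± 143 CPM in endocrine wells and 1.02 ± 0.47 CPM in non-endocrine wells (SD, n = 7 plates). Their log2 differences were close to each other, at 6.35 ± 0.17 (SE, adjusted p = 1.72e-13) for Scg5 and 6.39 ± 0.31 (SE) for Pcsk1n. The call of Pcsk1n is no support, as said above.

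The 2 finishing enzymes were not among the rarest members, and Pam had the smallest log2 difference of the set. Cpe, carboxypeptidase E, averaged 1147 ± 266 CPM in endocrine wells and 21.3 ± 13.7 CPM in non-endocrine wells (SD, n = 7 plates). Pam, the amidating monooxygenase, averaged 1207 ± 513 CPM in endocrine wells and 51.6 ± 16.7 CPM in non-endocrine wells (SD, n = 7 plates). The log2 differences were 5.20 ± 0.21 for Cpe (SE, adjusted p = 1.46e-11) and 4.18 ± 0.12 for Pam (SE, adjusted p = 2.58e-13). Pam had the highest non-endocrine level of all members other than Chga, and 71.6% of its UMIs lay in endocrine wells. B230216N24Rik overlaps Pam in the annotation, and the counting is not stated to use strand, so reads of that gene cannot be told apart from those of Pam.

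Scgn encodes secretagogin, a calcium-binding protein of endocrine cells. It averaged 121 ± 140 CPM in endocrine wells and 0.845 ± 0.727 CPM in non-endocrine wells (SD, n = 7 plates). Its log2 difference was 6.33 ± 0.32 (SE), with a call that is no support, as said above. The spread over plates in endocrine wells was larger than the mean. In 3 plates the non-endocrine wells held fewer than 3 of its UMIs, and the ratio there is a lower bound.

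**Figure D1:**
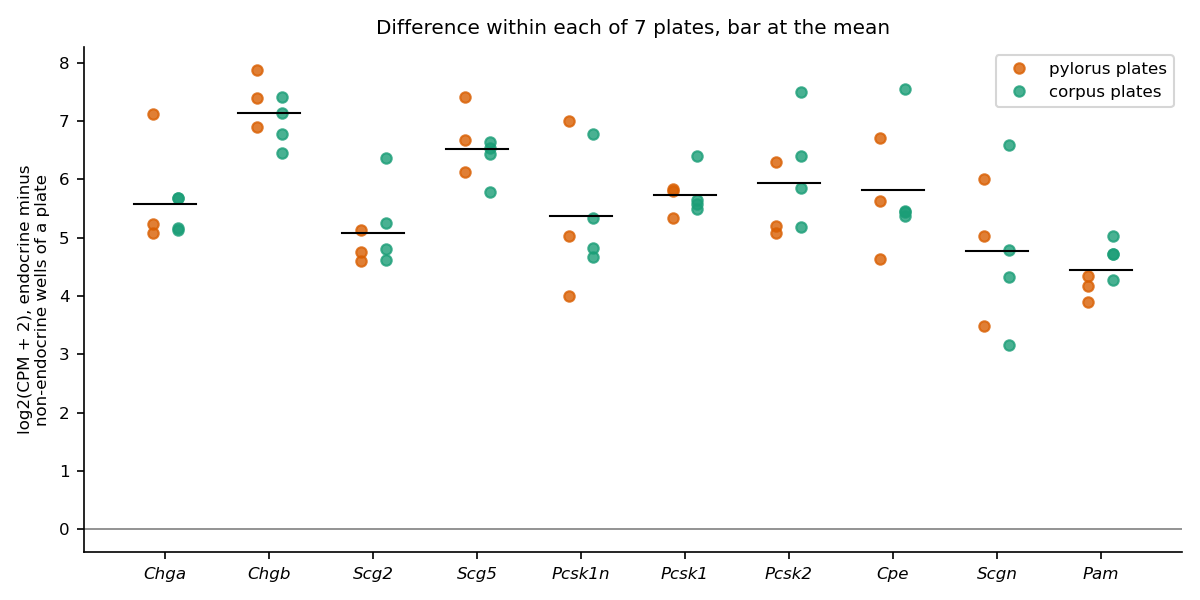
Difference in log2(CPM + 2) between endocrine and non-endocrine wells of the same plate, for the 10 members, with 1 point per plate and a bar at the mean of 7 plates. Every point lies above 0, Chgb has the highest mean (7.14) and Pam the lowest (4.45).

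The non-endocrine wells held a shallow set with endocrine genes. A cluster of 65 of them with a median of 1650 UMIs, led by genes such as Slc18a2 and Hdc, held Chga at 9677 CPM and Chgb at 660 CPM. It carried 3.82% of the Chga UMIs and 10.1% of the Chgb UMIs of all non-endocrine wells. Without it the Chga level of the non-endocrine wells was 142 CPM in pylorus replicate 1 and 41.3 CPM in corpus replicate 1, and the count of called genes was 5230, close to the 5234 of all wells. At the edge of the Ghrl limit, 4 wells just inside had a median Chga of 40549 CPM and 3 wells just outside had 913 CPM. At the edge of the Hdc limit, 7 wells just inside had 46609 CPM and 1 well just outside had 28523 CPM.

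Other genes of the granule were set beside the members. Of 28 genes of the granule membrane and of exocytosis, 26 were tested, and 22 were higher and 3 lower in endocrine wells. The median log2 difference of the list was 4.86. Slc18a2, the vesicular monoamine transporter, was higher by 6.47 ± 0.10 (SE), and Cadps, which primes dense-core granules, by 6.47 ± 0.29. Rab27b, a small GTPase of granule docking, was lower by 2.38 on the log2 scale (SE 0.17). Cadps2 and Rab3d were the other genes called lower, by 0.91 and 0.62, but with plain library totals as the scale they were not called (log2 -0.47 and -0.19).

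The other processing enzymes and granule proteins divided. Of 16 genes, 10 were tested, and 4 were higher and 3 lower, with a list median of -0.43. Those higher were Scg3 (6.79 ± 0.25) and Resp18 (6.66 ± 0.19), granule proteins, Vgf (5.36 ± 0.27), a granin-like precursor, and Ece1 (2.19 ± 0.15), a metalloprotease, all log2 differences with SE. Those lower were Furin, Cpm and Cpd, with log2 differences of -2.71 ± 0.29, -2.37 ± 0.44 and -0.84 ± 0.11 (SE). Furin is the convertase of the general secretory pathway, and it stood at a median of 274 CPM in endocrine wells and 1177 CPM in non-endocrine wells over plates. Plates ranged from 42.7 to 444 CPM in endocrine and from 116 to 1745 CPM in non-endocrine wells, so the ranges overlapped. Furin was also among the leading genes of the chief-like cluster of 179 wells.

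Of 18 endocrine transcription factors, 9 were tested and 8 were higher, with a list median of 6.32. Neurod1, a transcription factor of endocrine differentiation, had a log2 difference of 6.85 ± 0.34 (SE). Its level was uneven, at 353 to 699 CPM in Sst-led, 16.6 to 64.4 CPM in Ghrl-led and 0 to 5.41 CPM in Hdc-led wells over plates. Isl1 did not pass (0.36 ± 0.44, adjusted p = 0.513). Over the 28 sums of plate and class, the genes outside the set whose level was most like the mean of the members were Resp18 (Pearson r = 0.974), Scg3 (0.972), Map1b (0.970), Unc80 (0.947) and Wdr6 (0.930). These sums share plates and background, so the values describe the pattern. For single members the closest genes included Aplp1 for Chgb (r = 0.976), Scg3 for Cpe (0.980), Map1b for Scg5 (0.971), Lrp11 for Pam (0.951), Cplx2 for Pcsk1 (0.951) and Ncam1 for Chga (0.940). Neurod1 was the closest gene for both Scgn (0.951) and Pcsk1n (0.941), Ceacam10 for Scg2 (0.898) and Serping1 for Pcsk2 (0.877).

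The second question was how the members are divided among kinds of endocrine cell. Sst-led wells, of which 21 lay in 6 plates, held less Chga and more Pcsk2 among the members than Ghrl-led or Hdc-led wells. Chga gave 44.0% of the members' UMIs in them, against 85.3% in Ghrl-led and 85.7% in Hdc-led wells. Pcsk2 gave 18.2%, against 0.21% in Ghrl-led and 0.12% in Hdc-led wells.

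Pcsk2 stood at 1177 and 2621 CPM in Sst-led wells of pylorus replicates 1 and 2, and at 3246, 5552, 5666 and 3174 CPM in those of corpus replicates 1 to 4. In Ghrl-led wells it lay between 0 and 306 CPM, and in Hdc-led wells between 0 and 178 CPM. Neither class overlapped with the Sst-led wells.

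Scg2, Scgn and Pcsk1n moved the same way. Scg2 stood at 39.2 and 874 CPM in Sst-led wells of pylorus replicates 1 and 2, and at 927, 1477, 2010 and 898 CPM in those of corpus replicates 1 to 4, against 4.26 to 120 CPM in Ghrl-led and 0 to 5.41 CPM in Hdc-led wells. Only the single value of 39.2 CPM lay within the range of the Ghrl-led wells. Scgn lay between 183 and 1449 CPM in Sst-led wells, against 0 to 133 CPM in Ghrl-led wells, and it had 0 UMIs in all 103 Hdc-led wells, which held 1332669 UMIs. Pcsk1n lay between 406 and 2650 CPM in Sst-led wells, against 21.3 to 507 CPM in Ghrl-led and 0 to 51.9 CPM in Hdc-led wells. The 39.2 CPM of Scg2 was 1 UMI and the 183 CPM of Scgn 2 UMIs, both under the floor of 3 counts. Corpus replicate 3 held 1 Sst-led well, which gave that Scgn value and the highest Pcsk2, Scg2 and Pcsk1n values.

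Chga, Chgb and Pam were lower in Sst-led wells than in Hdc-led wells in each of the 6 plates. Chga averaged 8167 ± 3942 CPM in Sst-led wells (SD, n = 6 plates), against 39375 ± 17291 CPM in Ghrl-led and 53488 ± 7233 CPM in Hdc-led wells (SD, n = 7 plates each). Pcsk1 averaged 78.4 ± 68.8 CPM in Sst-led wells, against 232 ± 132 CPM in Ghrl-led and 291 ± 179 CPM in Hdc-led wells. Scg5 and Cpe were close in the 3 classes, with Scg5 at 971 ± 407, 737 ± 176 and 861 ± 199 CPM and Cpe at 1316 ± 349, 955 ± 342 and 1297 ± 681 CPM in Sst-led, Ghrl-led and Hdc-led wells.

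The planned test needed more than 1 plate with 5 Sst-led wells, and only corpus replicate 1 had them. A fit added after the data were seen, which accepted sums of 2 or more wells and so used 5 plates with Sst-led sums, tested 2875 genes. Set against Ghrl-led wells it called 6.26% of genes (1.6% higher and 4.66% lower), and set against Hdc-led wells 6.75% (2.09% higher and 4.66% lower). In both, 4 members were called higher (Scg2, Scgn, Pcsk1n, Pcsk2) and 3 lower (Chga, Chgb, Pam). Scg5, Cpe and Pcsk1 were not called. Scgn was at 0 in Hdc-led wells, in which Scg2 had 4 UMIs and Pcsk1n 22. These genes passed the filter on low counts only through the other classes, so their calls against Hdc-led wells are no support.

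The log2 differences of Sst-led minus Ghrl-led wells in that fit were 5.09 ± 0.38 for Pcsk2 (SE, adjusted p = 1.44e-13), 3.85 ± 0.43 for Scgn (adjusted p = 6.9e-09) and 3.76 ± 0.54 for Scg2 (adjusted p = 2.73e-06). Pcsk1n differed by 3.56 ± 0.50 (adjusted p = 1.7e-06), Chga by -2.12 ± 0.16 (adjusted p = 4.46e-13), Pam by -1.28 ± 0.32 (adjusted p = 0.00772) and Chgb by -0.96 ± 0.28 (adjusted p = 0.029). In the Ghrl-led class 13 of 142 wells held all 121 Scgn UMIs and 161 of the 173 Scg2 UMIs. The differences of these genes therefore depend on how many such wells a plate held.

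Sst-led minus Hdc-led wells gave values of the same signs. Pcsk2 differed by 5.79 ± 0.39 (log2, SE, adjusted p = 5.14e-15). Scg2 had 4 UMIs in all Hdc-led wells and Pcsk1n 22, so their fitted sizes depend on the prior count of the fit and are not given. Against a floor of 3 counts per plate in the Hdc-led wells, Scgn was at least 2.43-fold to 158-fold higher in Sst-led wells over the 5 plates with more than 3 of its UMIs in Sst-led wells. Chga differed by -2.34 ± 0.17 (log2, SE, adjusted p = 7.48e-14), Pam by -1.44 ± 0.32 (adjusted p = 0.00203) and Chgb by -1.34 ± 0.28 (adjusted p = 0.00133). Both contrasts share the Sst-led sums. For Pam the mean difference over plates between Sst-led and Hdc-led wells was -1.52 in all UMIs and 0.48 after thinning to 1000 UMIs, so its direction turned under that setting; the cause was not tested. Against Ghrl-led wells the lists moved unevenly. Of 8 endocrine transcription factors tested, Hhex, Isl1 and Neurod1 were called higher. Of 20 exocytosis genes Baiap3 was called higher and Slc18a2, Rab3c, Snap25 and Rab3d lower. Of 7 processing genes Vgf and Cpd were called lower.

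**Figure D2:**
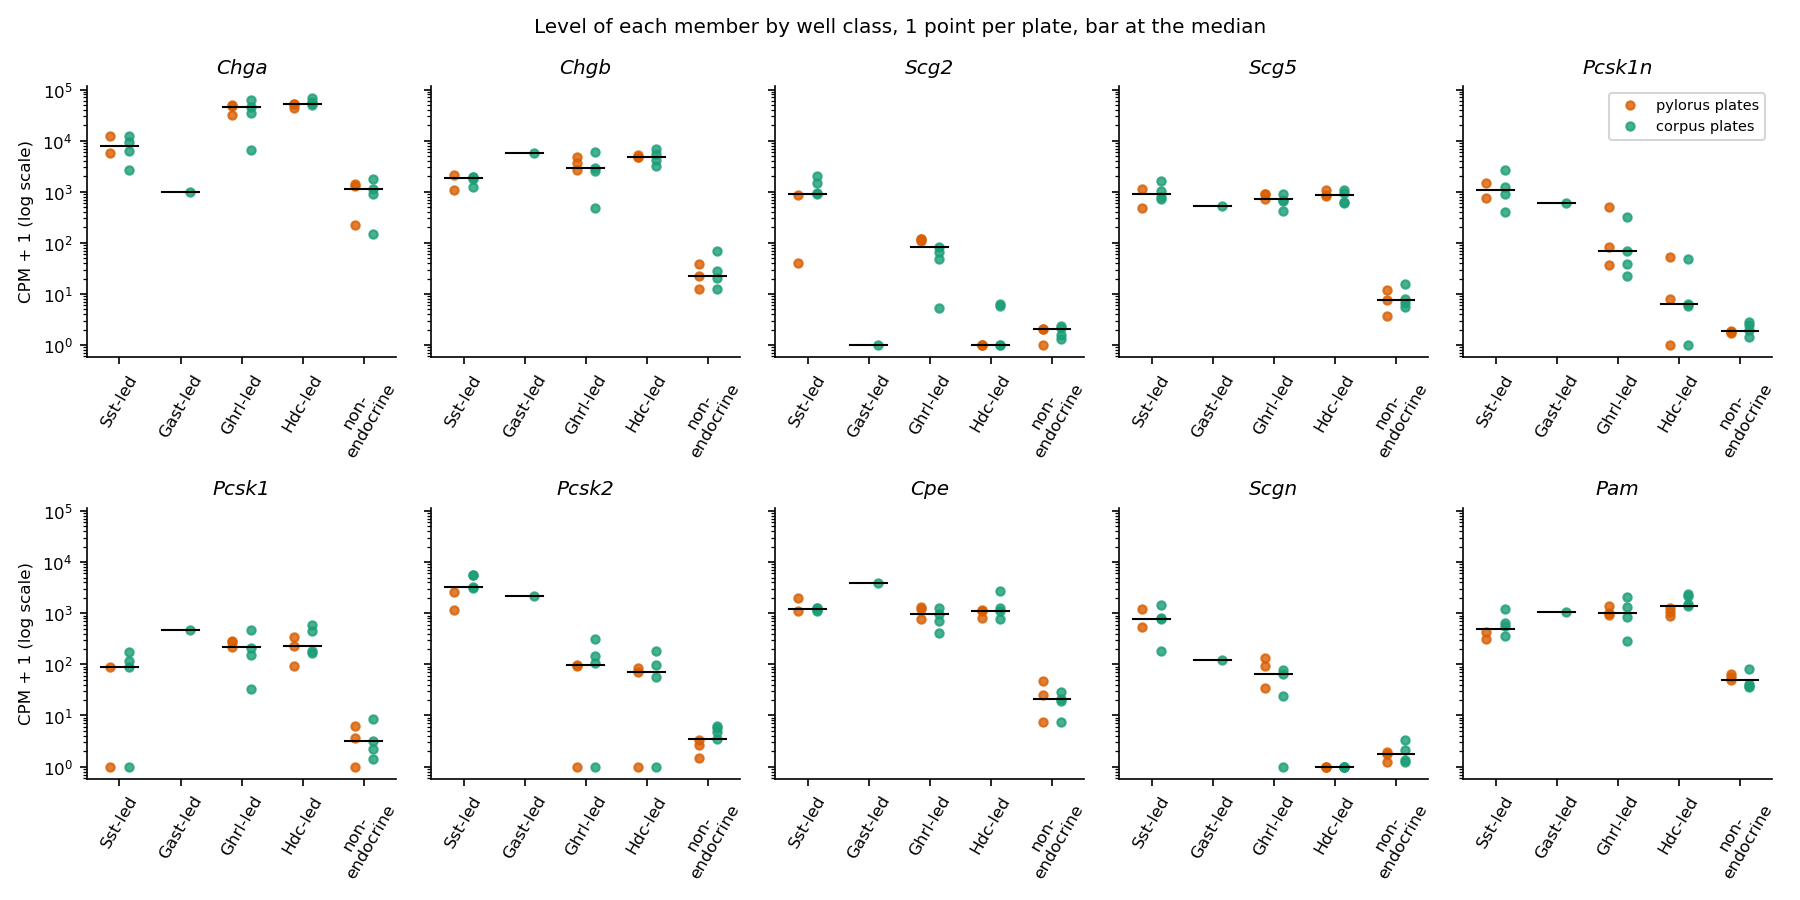
CPM + 1 of the 10 members on a log scale in wells led by Sst, Gast, Ghrl and Hdc and in non-endocrine wells, with 1 point per plate, pylorus and corpus plates coloured, and a bar at the median. The bars of Pcsk2, Scg2, Scgn and Pcsk1n are highest for Sst-led wells, that of Chga for Hdc-led wells, and Scgn is at 0 in Hdc-led wells of all plates.

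The 5 Gast-led wells came from corpus replicate 1 alone and form 1 sample without a replicate check. In their sum, which held 16838 UMIs, Chgb stood at 5761 CPM and Chga at 1010 CPM, so the order of the chromogranins was turned round: 0.175 Chga UMIs for each Chgb UMI, against 11.2 in Ghrl-led and 10.7 in Hdc-led wells. Cpe stood at 3860 CPM, Pcsk2 at 2197 CPM, Pam at 1069 CPM and Pcsk1 at 475 CPM. Scg2 had 0 UMIs. Pcsk2 gave 14.1% of the members' UMIs, near its 18.2% in Sst-led wells. Single wells ranged widely, with Chgb between 1755 and 17544 CPM. The highest of them lay at the limit of the choice, with 10 Gast UMIs, and held 56 of the 97 Chgb UMIs and 14 of the 17 Chga UMIs. Without it, a setting added after the data were seen, the other 4 wells held 41 Chgb and 3 Chga UMIs, and the sum stood at 3005 CPM for Chgb and 220 CPM for Chga.

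Ghrl-led and Hdc-led wells were then set against each other in the same plates. The classes are not cleanly apart: both genes met their limits in 104 of 142 Ghrl-led and 28 of 103 Hdc-led wells. In the fit over 6 plates with Hdc-led and 7 with Ghrl-led sums, 4 of 3234 genes were called, all higher in Ghrl-led wells (0.124%), with 26 genes at an unadjusted p under 0.05. Ghrl itself chose the wells. Scg2 was the only member among the others. It stood at 107, 120 and 119 CPM in Ghrl-led wells of pylorus replicates 1 to 3, against 0 CPM in the Hdc-led wells of each. In corpus replicates 1 to 4 it stood at 64.4, 80.3, 47.1 and 4.26 CPM in Ghrl-led wells, against 0, 4.85, 0 and 5.41 CPM in Hdc-led wells. The classes overlapped in corpus replicate 4 alone. Scg2 had 4 UMIs in all Hdc-led wells and passed the filter on low counts only through the other classes. Its call is no support, and its fitted size depends on the prior count of the fit and is not given. Scg2 also missed the threshold without corpus replicate 3 (adjusted p = 0.133), pylorus replicate 2 (0.112) or pylorus replicate 3 (0.306). The other members tested were not called: Chga differed by -0.18 ± 0.10, Chgb by -0.30 ± 0.21, Pcsk2 by 0.66 ± 0.66, Pcsk1 by 0.12 ± 0.60, Pam by -0.11 ± 0.26, Scg5 by -0.07 ± 0.22 and Cpe by 0.05 ± 0.22 (log2, SE). None of 7 processing, 20 exocytosis and 5 transcription factor genes tested was called.

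Scgn and Pcsk1n were too rare in Hdc-led wells to pass the filter on low counts. Without that filter 26 of 14993 genes were called, and Scgn, Scg2 and Pcsk1n were among them. The fitted size of a gene at or near 0 in a class depends on the prior count of the fit, so it is not given. Corpus replicate 1 held 6 Ghrl-led wells and too few Hdc-led wells (1) for a sum. Without it 121 genes were called, and Chgb (-0.30 ± 0.08, adjusted p = 0.02) and Pcsk2 (0.66 ± 0.16, adjusted p = 0.0121) were then past the threshold, while Scg2 no longer passed the filter.

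The Ghrl-led class was not uniform. Hdc also met its limits in 104 of the 142 wells. Of the rest, 13 wells held Ghrl at 10% of their UMIs or more, and 25 held less. This division was made after the data were seen, from Ghrl and Hdc alone, and its values are given without a test.

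The 13 wells with high Ghrl and little Hdc had low Chga. Their levels were 7555, 5888 and 9408 CPM in pylorus replicates 1 to 3 and 655, 10059 and 6554 CPM in corpus replicates 1 to 3, against 41731 to 65648 CPM over the 7 plates in the 104 wells with both genes. The groups did not overlap in any plate that held both. Each plate value of the 13 wells is a sum of 1 to 3 wells. In corpus replicate 1, 2 such wells stood against 1 well with both genes, and their Chga value was 3 UMIs, at the floor. Chgb was lower as well, at 218 to 1434 CPM against 3030 to 6508 CPM.

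Scg2, Scgn and Pcsk1n ran the other way. In the 13 wells Scg2 stood at 426, 921 and 894 CPM in pylorus replicates 1 to 3 and at 437, 1371 and 403 CPM in corpus replicates 1 to 3. In the 104 wells with both Ghrl and Hdc it stayed between 0 and 35.2 CPM. Scgn stood at 261 to 1348 CPM in the 13 wells and had 0 UMIs in the 104 wells, as in the Hdc-led wells. The 13 wells held 161 of the 173 Scg2 UMIs and all 121 Scgn UMIs of the Ghrl-led class. Pcsk1n stood at 2022, 517 and 242 CPM in pylorus replicates 1 to 3 and at 2185, 884 and 101 CPM in corpus replicates 1 to 3 in the 13 wells, against 0 to 28.3 CPM in the 104. Some of these values lay under the floor of 3 counts. In corpus replicate 1 Scg2 and Scgn had 2 UMIs each in the high Ghrl wells, and in corpus replicate 3 Pcsk1n had 1 UMI in 1 well. At least 1 UMI of Scg2 or Scgn was found in 11 of the 13 wells, in 0 of the 25 wells with less Ghrl, in 6 of the 104 wells with both genes and in 4 of the 103 Hdc-led wells. In Sst-led wells it was found in 20 of 21.

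In their granins the 104 wells with both genes were close to the Hdc-led wells, of which 28 of 103 also had both genes past their limits. Chga had a median over wells of 57297 CPM in the 104 wells and 56181 CPM in the Hdc-led wells, and Chgb of 3706 and 3659 CPM. The share of the members' UMIs that came from Chga was 85.9% in the 104 wells and 85.7% in the Hdc-led wells, against 53.6% in the 13 wells with high Ghrl. Cpe gave 11.1%, Chgb 6.73%, Scg2 6.34%, Scg5 5.91%, Scgn 4.77% and Pcsk1n 4.17% of the members' UMIs in the 13 wells. In Sst-led wells Scg2 gave 4.97%, Scgn 4.16% and Pcsk1n 5.55%, so these shares were of like size in both, while Pcsk2 gave 1.97% in the 13 wells and 18.2% in Sst-led wells. Ghrl stood at 6237 to 33765 CPM in the 104 wells, against 731 to 2567 CPM in Hdc-led wells and 42.3 to 1153 CPM in non-endocrine wells. Doublets were not called, and their part in the wells with both genes was not tested.

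**Figure D3:**
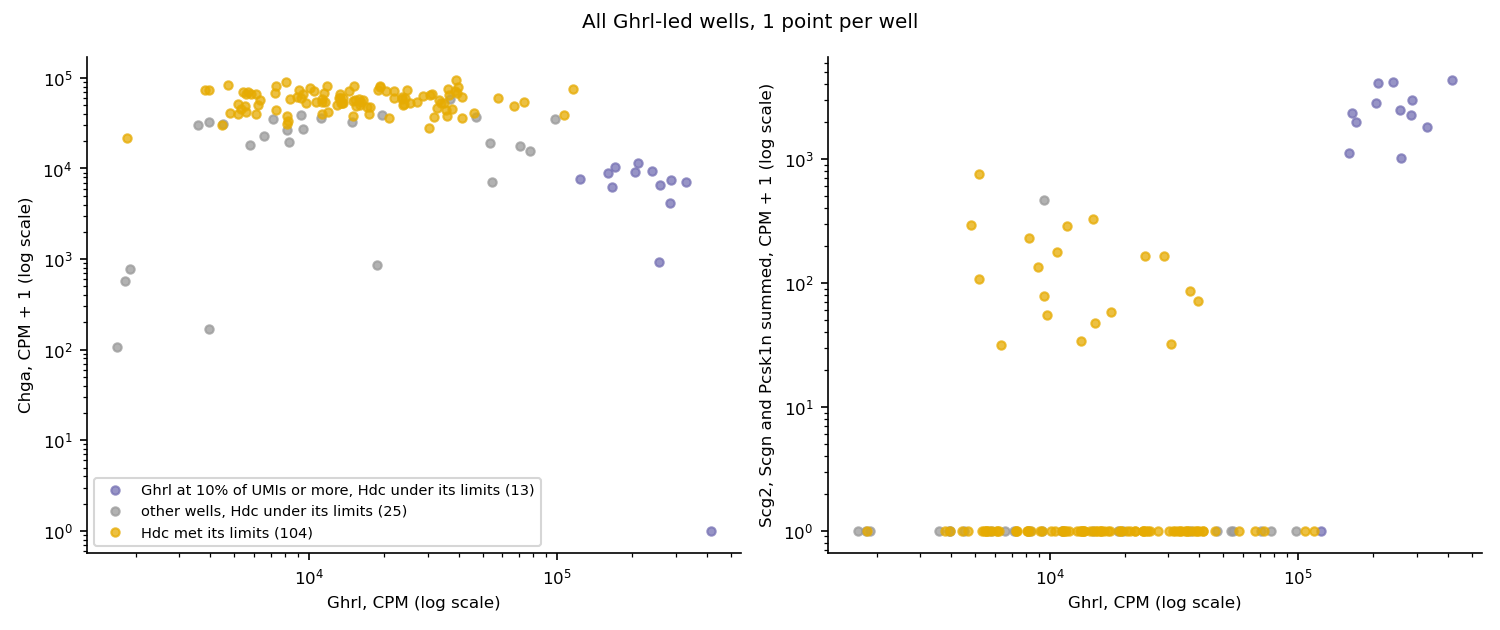
Chga (left) and the sum of Scg2, Scgn and Pcsk1n (right), both CPM + 1 on a log scale, against Ghrl (CPM, log scale) in the 142 Ghrl-led wells, with 1 point per well and colours for the 13 wells with high Ghrl and little Hdc, the 104 wells with Hdc and the other 25. The 13 wells have a median Chga of 7555 CPM, against 57297 CPM in the 104 wells, and 12 of them hold a UMI of Scg2, Scgn or Pcsk1n, against 19 of the 104.

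Single wells were next compared at equal depth, with every well thinned to 3000 UMIs and shallower wells left out. Shares carry Wilson 95% intervals, which cover counting error only. Parietal-like wells, which are acid-secreting cells outside the endocrine lineage, served as the background. Their median depth of 35642 UMIs before thinning was above the 11939 UMIs of endocrine wells. Chga had a UMI in 86.7% of 135 parietal-like wells, so its presence in a single well marks nothing at this depth, and Chgb had one in 3.70%. Scg2, Scgn, Pcsk1n, Pcsk1 and Pcsk2 had none in 135 wells, which allows shares of up to 2.77%. Unthinned, Pcsk2 had a UMI in 7.19% and Pcsk1 in 5.76% of 139 parietal-like wells.

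Chgb was found in every one of 102 Hdc-led wells and in 13 of 14 Sst-led wells. Cpe was found in 94.1% of Hdc-led wells (87.8% to 97.3%) and Pam in 96.1% (90.3% to 98.5%). Pcsk2 had a UMI in 92.9% of Sst-led wells (68.5% to 98.7%), against 21.6% of Hdc-led wells (14.7% to 30.5%). Pcsk1 had one in 21.4% of Sst-led wells (7.57% to 47.6%), against 44.1% of Hdc-led wells (34.9% to 53.8%), and these intervals overlap. Scgn had one in 92.9% of Sst-led wells and in 0 of 102 Hdc-led wells, which allows up to 3.63%. Of the 21 Sst-led wells 7 were too shallow to enter. Unthinned, with a median of 6194 UMIs in Sst-led and 11394 UMIs in Hdc-led wells, Pcsk2 was found in 95.2% of Sst-led and 44.7% of Hdc-led wells and Pcsk1 in 23.8% and 75.7%.

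The convertases differed in how they were combined within wells. Among 14 Sst-led wells 10 held Pcsk2 without Pcsk1, 3 held both and 1 held neither. Among 103 wells with Ghrl and Hdc, 47 held Pcsk1 without Pcsk2, 14 held Pcsk2 without Pcsk1, 11 held both and 31 held neither. Hdc-led wells gave 35, 12, 10 and 45 of 102 in the same order. Among 12 wells with high Ghrl 6 held Pcsk1 alone and 4 held both, and none held Pcsk2 alone. Both of the 2 Gast-led wells that were deep enough held both convertases.

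Over all 255 endocrine wells of that depth 11.8% held both convertases (8.37% to 16.3%). The share was 38.7% in the unthinned wells and 2.21% in wells thinned to 1000 UMIs. It moved with the depth, and an absent UMI does not show an absent transcript.

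**Figure D4:**
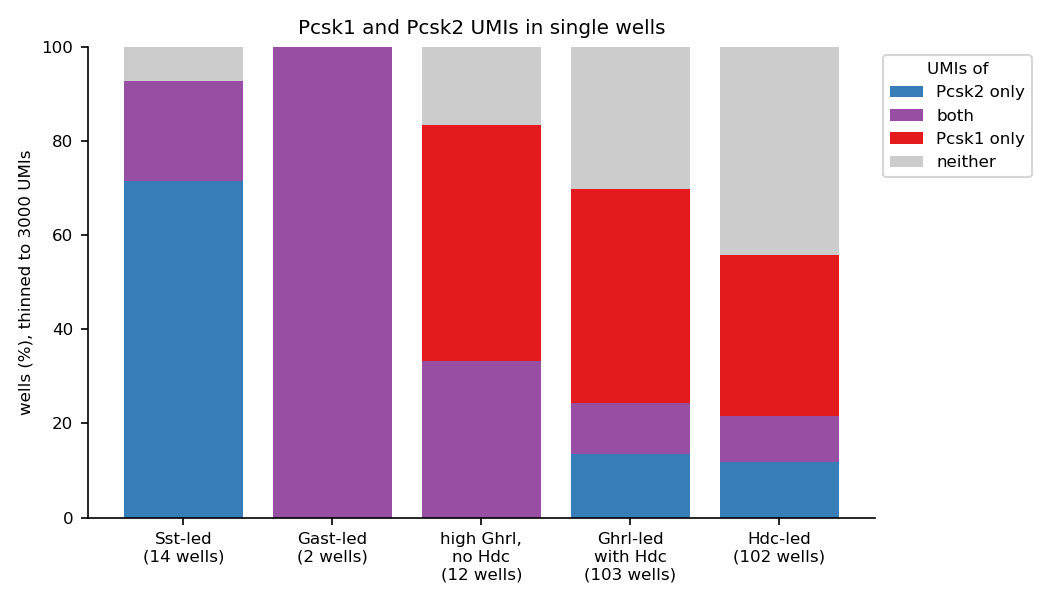
Shares of wells (%) with UMIs of Pcsk1 only, Pcsk2 only, both or neither, for each class of endocrine well, with every well thinned to 3000 UMIs and the number of wells under each bar. Pcsk2 alone makes up 71.4% of Sst-led wells, and Pcsk1 alone 34.3% of Hdc-led wells.

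Levels of the members also varied within a class. Over 102 Hdc-led wells with at least 3000 UMIs, Spearman's rho was 0.338 between Chga and Chgb, 0.369 between Chga and Pam and 0.236 between Cpe and Pam. Over 103 wells with Ghrl and Hdc, the same pairs gave 0.383, 0.214 and 0.0818. Wells share plates and depth, so these values are descriptions. Across the 28 sums of plate and class, Pearson's r was 0.972 between Chgb and Pam, 0.906 between Pcsk1n and Scgn and 0.881 between Scg2 and Scgn, but 0.0153 between Chga and Scgn.

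Pylorus and corpus plates were compared in the same well classes, with 3 plates against 4. The comparison rests on the plate labels, which the Gast counts went against. No member was called in any class (limma with Benjamini-Hochberg adjustment). In endocrine wells 0 of 6478 genes were called (0.0%), with 241 at an unadjusted p under 0.05. In Ghrl-led wells 0 of 3953 were called (0.0%), with 114 at that level, and in Hdc-led wells 2 of 2852 (0.0701%, with 0.0351% in each direction), with 161.

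Pcsk2 came nearest in endocrine wells, at 281, 145 and 89.2 CPM in pylorus plates, against 1325, 211, 380 and 382 CPM in corpus plates. The regions overlapped, since pylorus replicate 1 lay above corpus replicate 2. Its log2 difference was -1.67 ± 0.49 (SE, unadjusted p = 0.00441, adjusted p = 0.996). In pylorus replicates 2 and 3 against corpus replicates 3 and 4, a choice of plates made after the data were seen, it was -1.92 ± 0.22 (adjusted p = 3.66e-05), with 13 of 6456 genes called. Sst-led wells, in which Pcsk2 is high, numbered 2 and 0 in those pylorus plates and 1 and 4 in those corpus plates. Those wells held 30 Pcsk2 UMIs in pylorus replicate 2, 62 in corpus replicate 3 and 106 in corpus replicate 4. Over all plates Sst-led wells held 472 of the 869 Pcsk2 UMIs of endocrine wells. The part of this mix in the difference was not tested. Within Ghrl-led wells of all plates Pcsk2 differed by -0.86 ± 0.62 (adjusted p = 0.999).

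In Hdc-led wells Pam stood at 869, 1250 and 1073 CPM in pylorus plates, against 2413, 1495 and 1396 CPM in corpus replicates 2 to 4. The plates of the regions did not overlap, yet the log2 difference of -0.83 ± 0.23 missed the threshold (SE, unadjusted p = 0.00248, adjusted p = 0.601). Scg2 in Ghrl-led wells differed by 1.43 ± 0.61 (adjusted p = 0.999). The difference between endocrine and non-endocrine wells did not itself differ between regions for any of 9550 genes after adjustment, with 270 at an unadjusted p under 0.05. Among members Pam had the lowest p there (-0.62 ± 0.19, unadjusted p = 0.00642, adjusted p = 0.997).

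Last, the levels of the members were followed in the non-endocrine classes. The 1963 wells were clustered with the 10 members left out, and classes were named from marker genes, which gave 457 neck-like, 348 pit-like, 275 chief-like, 218 proliferating, 139 parietal-like, 116 mast-like and 50 tuft-like wells, with 360 unnamed. The proliferating class joined 114 wells led by mitotic genes such as Top2a and 104 wells that its markers marked weakly (mean log2 fold 0.55), led by Mt2 and Ppia. An unnamed cluster of 40 wells was also led by mitotic genes, such as Ccnb2. Levels below are medians over plates with at least 5 wells of the class, without a test.

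Cpe had a class of its own outside the endocrine wells. In tuft-like wells, the chemosensory cells of the gut lining, it stood at 475 and 858 CPM in pylorus replicates 2 and 3 and at 636 and 240 CPM in corpus replicates 3 and 4. Its median of 556 CPM compares with 28.6 CPM in chief-like, 17.5 CPM in mast-like, 11.8 CPM in neck-like, 11.4 CPM in parietal-like, 8.70 CPM in pit-like and 3.96 CPM in proliferating wells (3.71 and 6.54 CPM in its clusters of 114 and 104 wells). The tuft-like plates lay above every plate of the other named classes, whose highest was 44.4 CPM. After thinning to 3000 UMIs, Cpe was found in 60.4% of 48 tuft-like wells (46.3% to 73.0%), against 2.96% of 135 parietal-like wells, and unthinned in 84.0% of 50 and 31.7% of 139 wells. Scg2, Scgn, Pcsk1n, Pcsk1 and Pcsk2 were found in 0 of the 48 tuft-like wells, which allows up to 7.41%. Unthinned, Scgn, Pcsk1n, Pcsk1 and Pcsk2 each had a UMI in 1 of 50 tuft-like wells and Scg2 in 0.

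Pam varied among the epithelial classes. Of the named classes it stood highest in neck-like wells, with a median of 82.4 CPM (58.5 to 117 CPM over 7 plates), against 47.1 CPM in proliferating (42.8 and 44.6 CPM in its 2 clusters), 40.7 CPM in pit-like, 39.4 CPM in chief-like, 35.7 CPM in tuft-like, 17.9 CPM in parietal-like and 13.0 CPM in mast-like wells. Neck-like and parietal-like plates did not overlap (15.2 to 26.1 CPM in the parietal-like), while the neck-like range overlapped those of proliferating, pit-like and mast-like wells. Chga was spread over all classes, with a median of 2255 CPM in chief-like wells and 782 to 1255 CPM in the others that were named.

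**Figure D5:**
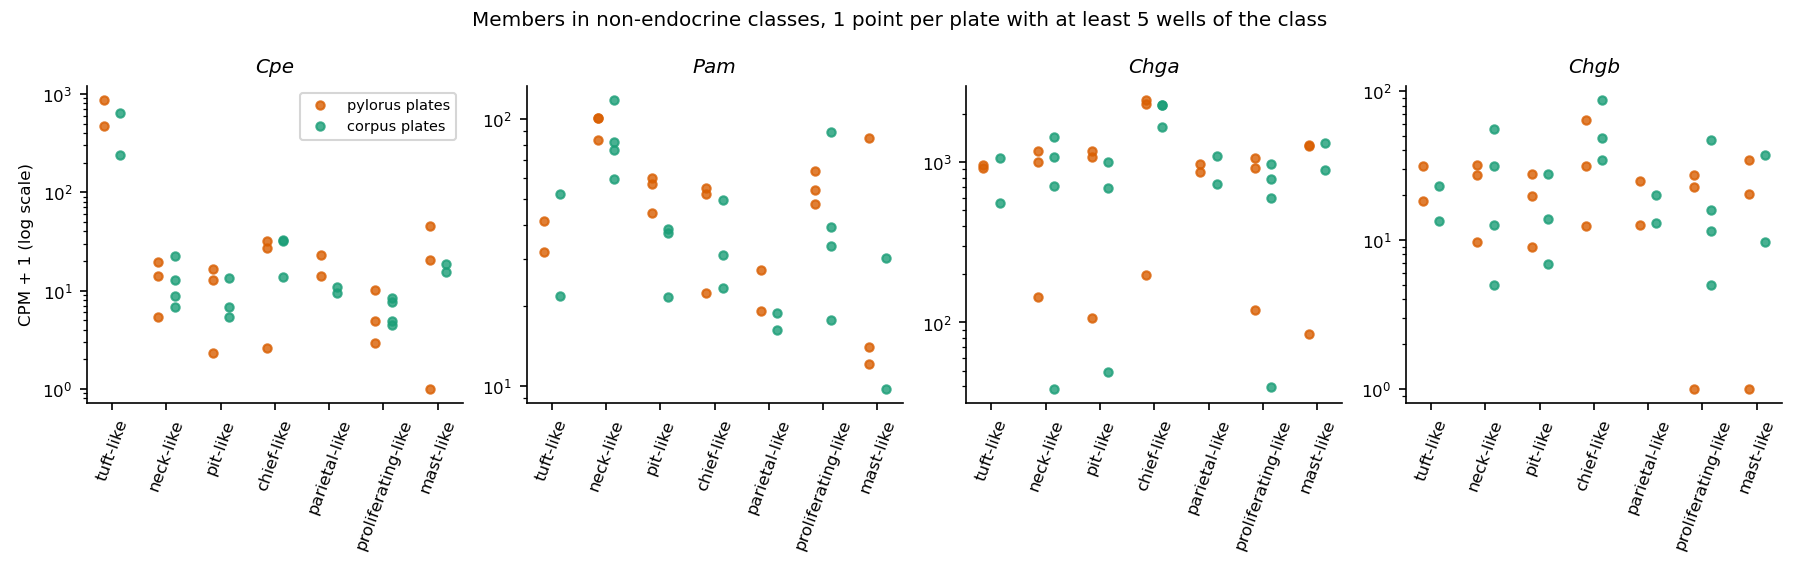
CPM + 1 (log scale) of members in the named non-endocrine classes, with 1 point per plate that held at least 5 wells of the class. Cpe lies between 240 and 858 CPM in tuft-like wells, above every plate of the other named classes, and the median of Pam is highest in neck-like wells.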

How the data were processed

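For each of 7 plates of 384 wells the authors deposited whole-number UMI counts, not normalized, made with SORT-seq (CEL-seq2) per the labels. The build was mm9 per the submitters' processing notes. An aligner, a counter and a strand setting are not named in the sources used here. No count exceeds 4095 in the tables, and the largest Chga count of a well was 3575; compression of such high counts was not tested. The unit check could not read these tables as counts, so the fallback test was used: limma 3.58.1 (R 4.3.3), voom weights with TMM-scaled totals, on counts summed per plate and well class (at least 5 wells, at least 2 in the added fit), with plate as block within plates and no block between regions. Genes needed 10 counts at the median library and 15 in total. Genes were called at a Benjamini-Hochberg adjusted p under 0.05.

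Without spike-ins, 453 wells fell under 1000 UMIs and were dropped. Doublets were not called. Plate totals are 2646492 to 9511078 UMIs. A floor is 3 counts. Non-endocrine wells were clustered with scanpy 1.11.5 (Leiden, resolution 1.0). Differences per plate used log2(CPM + 2). The test was checked on simulated data.

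Named genes are the 10 members, up to 6 genes of each of 3 lists per direction, and the genes most alike by Pearson correlation of log2(CPM + 10). Members and lists were chosen with earlier results of these data known.

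Alternatives covered scaling, filtering, well limits, thinning, background subtraction, the block and leaving out each plate. The values of 1 list gene are not reported here.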

Additional observations from a re-analysis of the deposited data

Results flagged for a closer look

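Among the 4 corpus plates, 6 of 30 member and class combinations had 1 plate far from the other 3, and chance flags about 1 in 20. In endocrine wells of corpus replicate 1, Scg2 stood at 256 CPM (the other plates 70.7 to 86.3), Pcsk2 at 1325 CPM (211 to 382) and Scgn at 413 CPM (18.9 to 60.5). That plate held 7 Sst-led wells among 19 endocrine wells. In its Ghrl-led wells Pcsk1n stood at 322 CPM (21.3 to 68.8). In corpus replicate 2, Pcsk1 stood at 448 CPM in endocrine wells (159 to 199) and Pam at 81.6 CPM in non-endocrine wells (34.3 to 41).

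The single Tac1-led well of corpus replicate 4, with 13934 UMIs, entered no comparison. Tac1 encodes the precursor of substance P. The well held Chgb at 39400 CPM, above the 69.5 CPM of the highest non-endocrine plate, and Chga at 14066 CPM (1772 in the highest such plate), so that it had 0.357 Chga UMIs for each Chgb UMI. Cpe stood at 1148 CPM (46.5), Scg5 at 646 CPM (14.6) and Pam at 431 CPM (81.6).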

How the results depend on the processing

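All 10 members stayed higher in endocrine wells, past the threshold, in all 227 values over 23 alternatives (log2 2.84 to 8.47). The calls of Scg2, Scgn, Pcsk1n, Pcsk1 and Pcsk2 carry the limit given above. The count of called genes, 5234, was 12596 with no filter, 780 after thinning to 1000 UMIs, 328 in the shallow plates alone, 4659 with no replicate block and 4604 to 5568 without 1 plate. Higher and lower calls were 4439 and 1564 with library totals (median of all genes 0.42) and 1199 and 4444 after background subtraction (median -1.34), against 2584 and 2650.

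For Ghrl-led against Hdc-led wells the 4 calls became 26 with no filter, 1 with limma trend at pseudocount 2, 122 in wells with 3000 UMIs, 8 with looser limits, 1 after thinning, 79 in deep plates, 1 with no replicate block, 2 after background subtraction and 3 to 121 without 1 plate. Scg2 missed the threshold without corpus replicate 3 (adjusted p = 0.133), pylorus replicate 2 (0.112) or pylorus replicate 3 (0.306). It also missed it with limma trend at pseudocounts 2 (0.301) and 10 (0.0705), with no replicate block (0.331) and after background subtraction (0.674). Its call in the main fit is no support, as said above. Chgb and Pcsk2 passed it in wells with 3000 UMIs.

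Between regions the 0 calls in endocrine wells became 1 with the replicate block and 13 in the 4 plates named (0 to 0 without 1 plate), and the 0 in Ghrl-led wells became 7 in those plates (0 to 1). The 2 calls in Hdc-led wells became 12 with the replicate block, 10 in those plates, 1 in wells with 3000 UMIs, by raw UMIs and in deep plates, 0 with library totals, trend, stricter limits and thinning, and 0 to 8 without 1 plate. Plates share only a replicate number: deviations of same-numbered plates correlated at 0.176, -0.00784 and 0.197 over 6478 genes, and not every plate was closest to its own number.

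Members whose mean differed by over 1 on the log2 scale numbered 6 for Sst-led against Ghrl-led wells (6 to 8 without 1 plate) and 8 against Hdc-led wells (8 to 8). Pam in Sst-led against Hdc-led wells turned to 0.48 after thinning to 1000 UMIs, against -1.52. Wells with both convertases were 2.21% at 1000 UMIs and 38.7% unthinned, against 11.8%. Region and Ghrl-against-Hdc fits on shallow plates alone could not be fitted. The causes were not tested. Scg2, Scgn and Pcsk1n rest on few UMIs, and 21 Sst-led and 5 Gast-led wells limit what those classes can show.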
